A study of Rattus norvegicus with 8 samples.

Results

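Testosterone undecanoate and the obese genotype were compared for 10 rat liver genes whose RNA level depends on the sex-typical pattern of growth hormone release. The genes were Cyp2c11, Cyp2c12, Cyp3a2, Cyp3a18, Obp3, Mup4, Mup5, Hao2, Prlr and Bcl6. Every array probe whose accession is assigned to one of these symbols was taken, which gave 11 of 41012 probes, 1 for each gene other than Bcl6, which had 2 (A_44_P287301 and A_44_P183241). All 11 passed the filter on dim probes, as did 26964 probes in all. On every array, 10 of the 11 lay well above background in both channels, and Bcl6 A_44_P183241 did so in Cy5 on 2 of the 4 lean arrays.

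RNA from the livers of 12-week-old male ZDF (Zucker diabetic fatty) rats was hybridised to 8 oligonucleotide arrays read in 2 colours, 4 for lean rats (fa/+) and 4 for obese rats, which carry a defective leptin receptor (fa/fa). On each array, RNA of rats given vehicle carried Cy3 and RNA of rats of the same genotype given testosterone undecanoate (TU), a long-acting testosterone ester, subcutaneously for 4 weeks (20 mg/kg per dose), carried Cy5. The arrays are labelled as biological replicates, the sources used here do not say whether each RNA was from 1 animal, and no female rats or growth hormone values are among the samples. The dyes were not exchanged, so a dye bias of a probe remains in its TU ratio. Slide 1 held the lean arrays and slide 2 the obese ones, each scanned as 1 batch, so in any comparison of obese with lean the genotype cannot be told apart from the slide.

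Growth hormone reaches the liver of male rats in widely spaced pulses and the liver of female rats at a more even level. The pulses activate the transcription factor STAT5b in bursts, which maintain male-typical genes such as Cyp2c11, while the even level maintains female-typical genes such as Cyp2c12 and represses others. Androgens act early in life and in adulthood on the pituitary pattern. The receptor of growth hormone signals through JAK2 and STAT5, and CISH and SOCS2 inhibit this signalling. Bcl6 encodes a repressor that binds many of the same sites as STAT5 and is itself lowered by even growth hormone.

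Start-site regions of the 10 genes (250 bases before and 50 after the start, 11 windows, since Prlr has 2) were taken from RefSeq, assembly GRCr8. They were searched on both strands for the STAT5-type motif TTCNNNGAA, which 8.87% of 33469 rat windows hold, and for TGTTCT, a hexamer bound by glucocorticoid and related steroid receptors, which 20.7% hold. Of the member windows, 1 held the STAT5-type motif (Prlr) and 3 held the hexamer (Cyp2c11, Prlr and Obp3, which had 2 matches). The windows shown are those with a match, and those of Mup4 and Mup5, relatives of Obp3 in the same family. Capitals mark a match on either strand (AGAACA is the hexamer read on the other strand), and each window is written 5′ to 3′ on the strand of its gene.
Prlr, chr2:60909409-60909708, plus strand: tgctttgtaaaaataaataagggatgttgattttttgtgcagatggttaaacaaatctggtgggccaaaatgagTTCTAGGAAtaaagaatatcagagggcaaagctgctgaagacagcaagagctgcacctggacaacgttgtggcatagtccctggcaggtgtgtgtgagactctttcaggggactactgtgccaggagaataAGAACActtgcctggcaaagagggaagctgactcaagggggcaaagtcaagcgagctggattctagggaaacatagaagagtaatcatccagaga
Cyp2c11, chr1:246174966-246175265, plus strand: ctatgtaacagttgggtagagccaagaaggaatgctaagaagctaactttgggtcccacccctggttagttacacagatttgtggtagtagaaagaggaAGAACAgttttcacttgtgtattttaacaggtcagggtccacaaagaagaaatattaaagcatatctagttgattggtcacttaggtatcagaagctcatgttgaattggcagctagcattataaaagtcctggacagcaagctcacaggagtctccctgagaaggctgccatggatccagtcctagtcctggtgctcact
Obp3, chr5:79640626-79640925, minus strand: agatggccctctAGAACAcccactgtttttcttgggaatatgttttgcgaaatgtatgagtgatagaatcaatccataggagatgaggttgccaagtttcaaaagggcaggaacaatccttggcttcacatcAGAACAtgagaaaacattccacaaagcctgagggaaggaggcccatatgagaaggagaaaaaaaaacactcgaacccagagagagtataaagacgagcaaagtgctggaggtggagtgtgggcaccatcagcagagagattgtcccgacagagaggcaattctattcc
Mup4, chr5:79759447-79759746, minus strand: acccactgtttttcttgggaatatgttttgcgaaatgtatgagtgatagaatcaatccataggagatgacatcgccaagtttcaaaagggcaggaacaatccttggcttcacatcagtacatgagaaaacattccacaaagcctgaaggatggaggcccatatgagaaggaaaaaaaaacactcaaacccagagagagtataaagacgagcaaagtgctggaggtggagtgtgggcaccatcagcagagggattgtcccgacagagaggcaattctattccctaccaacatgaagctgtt
Mup5, chr5:79999646-79999945, minus strand: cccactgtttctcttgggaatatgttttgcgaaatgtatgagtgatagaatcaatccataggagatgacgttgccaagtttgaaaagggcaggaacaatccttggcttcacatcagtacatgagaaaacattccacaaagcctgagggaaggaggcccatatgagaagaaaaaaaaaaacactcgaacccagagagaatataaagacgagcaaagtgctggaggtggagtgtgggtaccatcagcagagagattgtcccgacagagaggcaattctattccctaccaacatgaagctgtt
The Prlr window is the second of the pair, and its STAT5-type match, TTCTAGGAA, begins at base -176 from the start. A match is a run of letters and not a measured binding site. Mup4 and Mup5 were identical at 95.7% of alignment positions, gaps counted as differences, Mup4 and Obp3 at 85.6%, and Mup5 and Obp3 at 85.9%. Those 3 genes lie near each other in that assembly, with 1 coding gene between Mup4 and Mup5 and 3 between Mup4 and Obp3. These windows are not probe or transcript sequences, which were not used here, so signal shared among relatives of the alpha-2u-globulin, Cyp2c and Cyp3a families was not tested.

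Over the 8 arrays, 50.4% to 69.1% of spots were well above background in a channel, and log2 ratios had an SD of 0.46 on obese replicate 2 against 0.11 to 0.25 elsewhere. The number of arrays limits the precision. Values below are log2 intensities after normalization, with an own scale for each probe, so they are compared between arrays and not between probes. Changes are log2 fold changes with the SE of a limma fit over all probes, and the threshold is a Benjamini-Hochberg adjusted p of 0.05. In bulk liver, fewer cells of a type and less RNA per cell cannot be told apart.

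In the liver of obese rats given vehicle, the female-typical Cyp2c12 and Prlr were higher than in lean rats, and Cyp3a2, Cyp3a18, Obp3 and Hao2 were lower. With TU the same 6 genes passed in the same directions and Cyp2c11 was lower too. So 6 of 11 probes passed in Cy3, where 15.9% of all probes did (9.23% higher and 6.71% lower), and 7 of 11 in Cy5, where 21.7% did (13.5% higher and 8.18% lower). At an unadjusted p under 0.05, 8 member probes passed in each dye (3 higher and 5 lower), where 32.0% of all probes did in Cy3 (18.5% higher and 13.5% lower) and 34.9% in Cy5 (21.1% and 13.8%). The lean and obese arrays did not overlap for 6 member probes in Cy3 and 8 in Cy5, against 26.9% and 28.0% of all probes. The median change of the members was -0.31 in Cy3 and -0.40 in Cy5, beside 0.02 and 0.03 over all probes. Both channels were read from the same arrays, so the Cy5 comparison shares its slides with the Cy3 comparison. Over all probes 2483 were higher and 1805 lower in Cy3 as reported and 2761 and 2213 with quantile normalization of the channel, but 44 and 333 when the channel was scaled to its 75th percentile without loess, and 2800 and 3229 from the processed signals, another signal source. In Cy5 these were 3623 and 2201 as reported, 3420 and 2398 with quantile normalization, 8 and 95 at the 75th percentile, and 3962 and 4176 from processed signals. No called change of a member turned its direction under any of these settings.

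**Figure D1:**
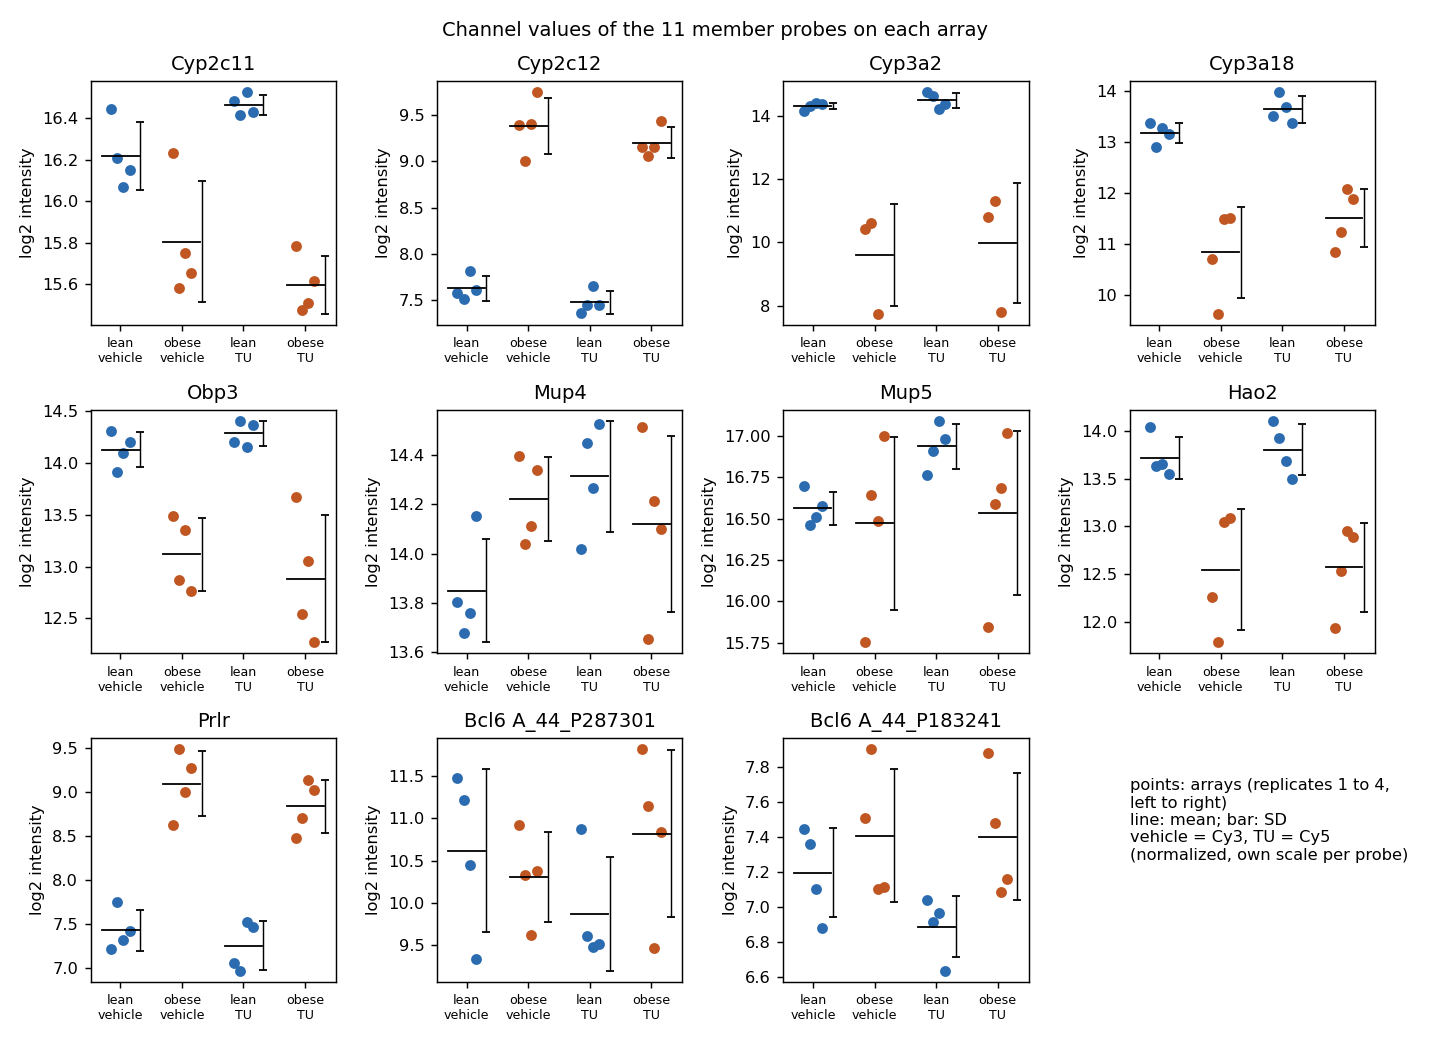
Normalized log2 intensities of the 11 probes of the 10 genes on each array (points), with the mean (line) and SD (bar) of the lean (blue) and obese (orange) arrays in the vehicle channel (Cy3) and the TU channel (Cy5), each panel on its own axis. Cyp2c12 and Prlr sit higher and Cyp3a2, Cyp3a18, Obp3 and Hao2 lower on every obese array than on any lean array in both channels, and the Cyp3a2 value of obese replicate 4 is missing because its spot was marked as non-uniform.

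Cyp2c12 encodes the female-typical steroid hydroxylase of rat liver, which is normally low in males. In Cy3 its log2 level was 7.57, 7.51, 7.82 and 7.61 in lean replicates 1 to 4 and 9.39, 9.01, 9.40 and 9.75 in obese replicates 1 to 4. In Cy5 it was 7.36, 7.44, 7.65 and 7.44 in lean and 9.16, 9.06, 9.15 and 9.44 in obese arrays. The lowest obese value, 9.01, lay above the highest lean value, 7.82, with no overlap in either dye. The difference was 1.76 ± 0.15 in Cy3 (n = 4 and 4, limma adjusted p = 0.000725), a 3.40-fold higher level, and 1.73 ± 0.10 in Cy5 (limma adjusted p = 0.000101), 3.32-fold higher. From the processed signals the difference was larger, 2.63 in Cy3 and 2.62 in Cy5. Lean levels were low, with Cy5 spot medians of 78 to 127 over backgrounds of 37 to 45 before correction. The size of the fold therefore depends on the signal used.

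Prlr encodes the prolactin receptor, which female rat liver carries at a higher level than male liver. Its Cy3 level was 7.21, 7.75, 7.31 and 7.41 in lean and 8.62, 9.48, 8.99 and 9.26 in obese arrays. In Cy5 it was 7.05, 6.96, 7.52 and 7.46 in lean and 8.48, 8.70, 9.14 and 9.02 in obese arrays. Every obese value was above every lean value of the same dye. The difference was 1.67 ± 0.20 in Cy3 (n = 4 and 4, limma adjusted p = 0.00234), 3.18-fold higher, and 1.58 ± 0.18 in Cy5 (limma adjusted p = 0.00126), 3.00-fold higher. From the processed signals it was 2.76 and 2.79, and in Cy5 the call was lost with 75th percentile scaling (1.49, limma adjusted p = 0.0824). Lean Prlr was dim, with Cy5 spot medians of 63.45 to 138.5 over backgrounds of 41.2 to 44.2 before correction, so its fold too depends on the signal used. The Prlr window with both motif matches is shown above, and these data do not bear on which Prlr start was used.

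Cyp3a2, the male-typical steroid hydroxylase of the Cyp3a family, differed most between the genotypes among the members. Its Cy3 level was 14.18, 14.32, 14.42 and 14.40 in lean arrays and 10.43, 10.63 and 7.74 in obese replicates 1 to 3. In Cy5 it was 14.77, 14.65, 14.24 and 14.38 in lean arrays and 10.81, 11.32 and 7.80 in obese replicates 1 to 3. The lean arrays lay close together, while obese replicate 3 lay far below obese replicates 1 and 2 in both dyes. The difference was -4.73 ± 0.68 in Cy3 (n = 3 and 4, limma adjusted p = 0.00727), a 26.5-fold lower level in obese arrays, and -4.53 ± 0.79 in Cy5 (limma adjusted p = 0.00850), 23.2-fold lower. The spot of obese replicate 4 was left out of this fit as non-uniform; kept, it read 9.11 in Cy3 and 9.53 in Cy5, between the other obese arrays, and the differences were -4.86 and -4.64. Without obese replicate 3 the differences were -3.87 and -3.51, and without obese replicate 2 the Cy5 difference was -5.22, all with an adjusted p below the threshold (limma adjusted p = 0.000115, 0.000562 and 0.00966).

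Cyp3a18, another male-predominant enzyme of the family, read 13.37, 12.90, 13.26 and 13.15 in Cy3 of lean arrays and 10.70, 9.64, 11.49 and 11.52 in obese arrays. In Cy5 it read 13.52, 13.97, 13.68 and 13.37 in lean and 10.84, 11.23, 12.08 and 11.88 in obese arrays. The groups did not overlap in either dye, and obese replicate 2 was the lowest array in Cy3. The difference was -2.33 ± 0.40 in Cy3 (n = 4 and 4, limma adjusted p = 0.01), a 5.04-fold lower level in obese arrays, and -2.13 ± 0.28 in Cy5 (limma adjusted p = 0.00191), 4.37-fold lower. From the processed signals the differences were -3.05 and -2.73, and with 75th percentile scaling the Cy3 difference was -3.12. The Cyp3a2 and Cyp3a18 windows were identical at 53.6% of alignment positions, and neither held a match to the motifs searched.

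Cyp2c11, the main male-specific hydroxylase of testosterone in rat liver, differed less. Its Cy3 level was 16.45, 16.21, 16.07 and 16.15 in lean and 16.23, 15.58, 15.75 and 15.65 in obese arrays, and obese replicate 1 fell within the lean range. In Cy5 it was 16.48, 16.42, 16.53 and 16.43 in lean and 15.79, 15.48, 15.51 and 15.62 in obese arrays, with no overlap. In Cy3 the difference of -0.41 ± 0.15 did not pass (n = 4 and 4, limma adjusted p = 0.109), though it did without obese replicate 1 (-0.54, 0.0118) and with quantile normalization of the 1 channel (-0.54, 0.0464). In Cy5 the difference was -0.87 ± 0.08 (n = 4 and 4, limma adjusted p = 0.000507), 1.82-fold lower in obese arrays, a call that was lost with 75th percentile scaling (-1.37, adjusted p = 0.5).

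Obp3, Mup4 and Mup5 belong to the alpha-2u-globulin family, small lipid-binding proteins that adult male rat liver secretes for excretion in urine. Of these, the Obp3 probe was lower in obese arrays and the other 2 did not pass. Obp3 read 14.31, 13.91, 14.09 and 14.20 in Cy3 of lean arrays and 13.49, 12.87, 13.35 and 12.77 in obese arrays. In Cy5 it read 14.20, 14.41, 14.15 and 14.37 in lean and 13.67, 12.55, 13.05 and 12.27 in obese arrays. No obese value reached the lean range of its dye, and obese replicates 2 and 4 were the lowest. The difference was -1.01 ± 0.18 in Cy3 (n = 4 and 4, limma adjusted p = 0.0107), a 2.01-fold lower level in obese arrays, and -1.40 ± 0.27 in Cy5 (limma adjusted p = 0.0102), 2.64-fold lower. With 75th percentile scaling the differences were -2.04 in both dyes and the Cy5 call was lost (limma adjusted p = 0.162), and from the processed signals they were -1.74 and -2.03.

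Mup4 read 13.80, 13.68, 13.76 and 14.15 in Cy3 of lean and 14.40, 14.04, 14.11 and 14.34 in obese arrays, with lean replicate 4 inside the obese range. Its Cy3 difference was 0.37 ± 0.13 (n = 4 and 4, limma adjusted p = 0.0861), which passed without lean replicate 4 (0.47, 0.0459) but was -0.40 from the processed signals, -0.018 with quantile normalization and -0.77 with 75th percentile scaling. In Cy5 Mup4 read 14.02, 14.45, 14.27 and 14.52 in lean and 14.51, 13.65, 14.21 and 14.10 in obese arrays, which overlapped, and the difference was -0.20 ± 0.19 (limma adjusted p = 0.509). Mup5 read 16.70, 16.46, 16.51 and 16.58 in Cy3 of lean and 15.75, 16.64, 16.49 and 17.00 in obese arrays, the obese arrays lying on both sides of the lean ones. In Cy5 Mup5 read 16.77, 16.91, 17.09 and 16.98 in lean and 15.84, 16.59, 16.69 and 17.02 in obese arrays, with obese replicate 1 the lowest in both dyes. Its differences were -0.09 ± 0.24 in Cy3 (limma adjusted p = 0.834) and -0.40 ± 0.23 in Cy5 (limma adjusted p = 0.251). From the processed signals the Cy5 difference of Mup5 passed (-0.62, limma adjusted p = 0.0298). The 95% intervals reached from 0.08 to 0.66 for Mup4 and from -0.65 to 0.47 for Mup5 in Cy3.

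Hao2 encodes a peroxisomal oxidase of hydroxy acids. It read 14.04, 13.63, 13.65 and 13.55 in Cy3 of lean and 12.26, 11.78, 13.04 and 13.09 in obese arrays. In Cy5 it read 14.11, 13.92, 13.69 and 13.50 in lean and 11.93, 12.53, 12.95 and 12.89 in obese arrays. The groups did not overlap in either dye, obese replicates 1 and 2 being the lowest. The difference was -1.17 ± 0.30 in Cy3 (n = 4 and 4, limma adjusted p = 0.0372), a 2.26-fold lower level in obese arrays, and -1.23 ± 0.24 in Cy5 (limma adjusted p = 0.00938), 2.35-fold lower. The Cy3 call of Hao2 was lost without any 1 lean array (adjusted p = 0.105, 0.0902, 0.0897 and 0.0831 without lean replicates 1 to 4) or without obese replicate 1 (0.0572). From the processed signals the Hao2 differences were -1.81 and -1.76, and with 75th percentile scaling the Cy3 difference was -2.13. The Cy3 call was also lost with no filter (0.0520), and the Cy5 call with 75th percentile scaling (-1.82, 0.129).

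The 2 probes of Bcl6 did not pass in either dye and varied widely. Probe A_44_P287301 read 11.48, 11.21, 10.45 and 9.34 in Cy3 of lean and 10.92, 10.33, 9.62 and 10.38 in obese arrays, the lean arrays enclosing the obese ones. In Cy5 it read 10.87, 9.62, 9.48 and 9.51 in lean and 11.82, 11.14, 9.47 and 10.84 in obese arrays, with lean replicate 1 apart from the other lean arrays. Its differences were -0.31 ± 0.49 in Cy3 (limma adjusted p = 0.713, but 0.28 from the processed signals) and 0.95 ± 0.52 in Cy5 (limma adjusted p = 0.238). Probe A_44_P183241 differed by 0.21 ± 0.21 in Cy3 (limma adjusted p = 0.531) and by 0.51 ± 0.18 in Cy5 (limma adjusted p = 0.0780). The Cy5 difference of that probe passed from the processed signals (2.17, limma adjusted p = 0.0170). Its lean and obese Cy5 values did not overlap, at 7.04, 6.91, 6.97 and 6.64 in lean and 7.88, 7.48, 7.09 and 7.16 in obese arrays.

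**Figure D2:**
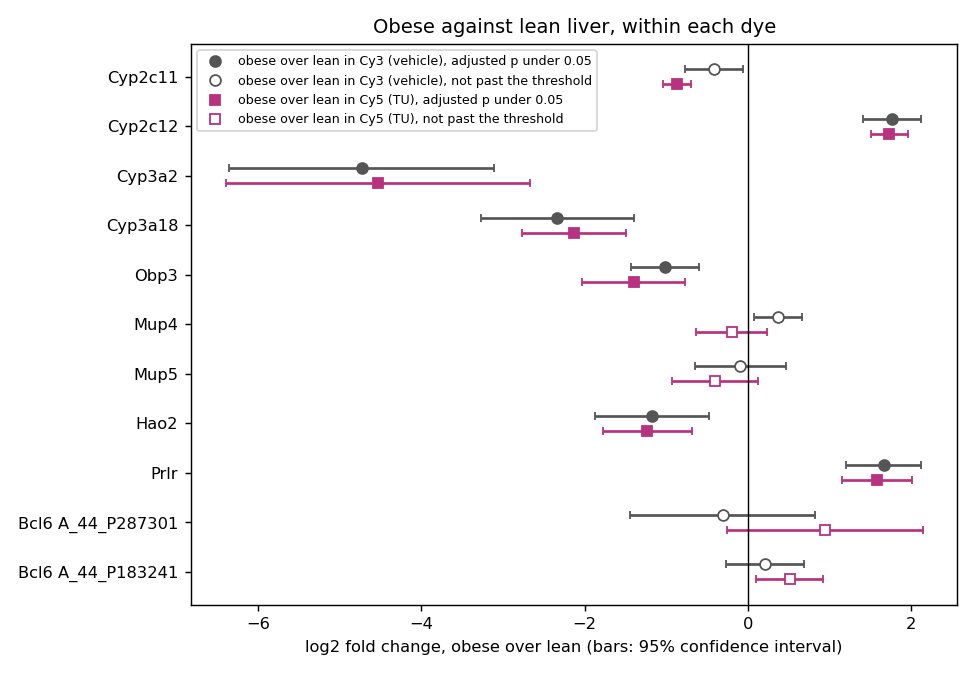
Log2 fold change of obese over lean arrays for the 11 probes, with the 95% confidence interval of the limma fit, in the vehicle channel (circles) and the TU channel (squares); filled symbols have an adjusted p under 0.05. Cyp2c12 and Prlr lie to the right of 0 and Cyp3a2, Cyp3a18, Obp3 and Hao2 to the left in both dyes, and Cyp2c11 is filled in Cy5.

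TU gave no call for any of the 11 probes in lean or obese rats, with 0.197% (0.123% higher and 0.0744% lower) and 0.0111% (0.0111% higher and 0% lower) of all probes called by limma. At an unadjusted p under 0.05, 6 member probes passed in lean arrays (3 higher and 3 lower), where 15.0% of all probes did (6.25% higher and 8.70% lower), and 4 in obese arrays (2 higher and 2 lower), where 12.7% did (6.24% and 6.48%). The median log2 ratio of the members was 0.16 in lean and -0.005 in obese arrays, beside -0.02 and -0.01 over all probes. The lean values depend on the normalization within arrays, since arrays centred on their median, without loess, gave a median of -0.21 over all probes, and Cyp2c11, Cyp3a2, Cyp3a18, Obp3, Mup4, Mup5 and Hao2 lay below 0.

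In lean rats the alpha-2u-globulin probes Mup4 and Mup5 lay above 0 on every array after loess. The log2 ratios of TU over vehicle were 0.21, 0.77, 0.51 and 0.37 for Mup4 on lean replicates 1 to 4. For Mup5 they were 0.07, 0.45, 0.58 and 0.40. Mup4 stood at 0.46 ± 0.11 (n = 4, limma adjusted p = 0.112) and Mup5 at 0.37 ± 0.08 (limma adjusted p = 0.103). In the fit without obese replicate 2, the array of widest spread, both passed with the same ratios (adjusted p = 0.0341 and 0.0372). Over all probes that fit called 1200 in lean rats, against 53 with every array, so the gain was not particular to these genes. With median centring they were -0.015 and -0.055. On obese arrays the Mup4 ratios were 0.12, -0.39, 0.10 and -0.24, on both sides of 0, with a mean of -0.10 ± 0.11 (limma adjusted p = 0.657). The Mup5 ratios there were 0.09, -0.05, 0.20 and 0.02, with a mean of 0.06 ± 0.08 (limma adjusted p = 0.71). Obp3 had ratios of -0.11, 0.50, 0.06 and 0.17 on lean and 0.18, -0.32, -0.30 and -0.49 on obese arrays, with means of 0.16 ± 0.12 and -0.23 ± 0.12 that did not pass (limma adjusted p = 0.602 and 0.426).

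After loess, Cyp2c11 lay above 0 on all 4 lean arrays and below 0 on all 4 obese arrays, while median centring gave means of -0.19 in lean and 0.28 in obese rats. Its ratios were 0.03, 0.21, 0.46 and 0.28 on lean replicates 1 to 4 and -0.45, -0.11, -0.24 and -0.04 on obese replicates 1 to 4. Such a split, all lean ratios on one side of 0 and all obese on the other, was found for 1.23% of all probes, and among the members for Cyp2c11. The means were 0.25 ± 0.08 in lean (limma adjusted p = 0.221) and -0.21 ± 0.08 in obese rats (limma adjusted p = 0.382). The obese minus lean difference was -0.45 ± 0.12 (n = 4 and 4, limma adjusted p = 0.641), and it was 0.47 with median centring.

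The test of the difference between genotypes called no member, and 0.00372% of all probes passed it. At an unadjusted p under 0.05, 5 member probes passed (1 higher and 4 lower), where 7.62% of all probes did (5.07% and 2.55%). The lean and obese ratios did not overlap for 2 member probes, Cyp2c11 and Mup4, against 5.21% of all probes. Mup4 differed by -0.57 ± 0.15 (limma adjusted p = 0.641), Mup5 by -0.31 ± 0.11 (adjusted p = 0.641) and Obp3 by -0.39 ± 0.17 (adjusted p = 0.653). With median centring these differences were 0.30, 0.67 and 0.41, on the other side of 0. Bcl6 A_44_P287301 differed the other way, by 1.25 ± 0.37 (limma adjusted p = 0.641).

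Cyp3a18 ratios were above 0 on all 8 arrays, at 0.15, 1.07, 0.42 and 0.22 in lean and 0.14, 1.60, 0.59 and 0.36 in obese rats. Replicate 2 was the highest array in both genotypes. The means were 0.47 ± 0.23 (limma adjusted p = 0.389) and 0.67 ± 0.23 (limma adjusted p = 0.365), and the lean mean was -0.031 with median centring. Cyp3a2 ratios were 0.59, 0.32, -0.18 and -0.02 on lean arrays and 0.38, 0.69 and 0.06 on obese replicates 1 to 3. Its means were 0.18 ± 0.14 (n = 4, limma adjusted p = 0.619) and 0.38 ± 0.16 (n = 3, limma adjusted p = 0.392). In the authors' deposited table of log ratios the obese value of Cyp3a2 passed the same limma fit, at 0.63 (adjusted p = 0.0449).

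Female-typical Cyp2c12 was slightly below 0 on all lean arrays, at -0.21, -0.06, -0.17 and -0.16, and read -0.24, 0.06, -0.25 and -0.31 on obese arrays. The Cyp2c12 means were -0.15 ± 0.06 and -0.18 ± 0.06 (limma adjusted p = 0.308 and 0.365). The 95% intervals of these means, -0.30 to -0.01 and -0.33 to -0.04, lay far nearer to 0 than its difference between genotypes. Prlr ratios were -0.16, -0.78, 0.20 and 0.05 on lean and -0.14, -0.79, 0.14 and -0.24 on obese arrays, replicate 2 being the lowest in both genotypes. The Prlr means were -0.17 ± 0.17 and -0.26 ± 0.17 (limma adjusted p = 0.712 and 0.499), and the lean mean was 0.030 without lean replicate 2. Hao2 ratios were 0.07, 0.29, 0.04 and -0.05 on lean and -0.33, 0.74, -0.09 and -0.20 on obese arrays. The Hao2 means were 0.09 ± 0.15 and 0.03 ± 0.15 (limma adjusted p = 0.848 and 0.944), the obese mean being -0.21 without obese replicate 2.

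The repressor gene Bcl6 lay mostly below 0 in lean rats. Probe A_44_P287301 had ratios of -0.61, -1.60, -0.97 and 0.18 on lean and 0.90, 0.81, -0.15 and 0.46 on obese arrays. Probe A_44_P183241 had ratios of -0.40, -0.45, -0.14 and -0.24 on lean and 0.37, -0.42, -0.02 and 0.05 on obese arrays. The lean means were -0.75 ± 0.26 and -0.31 ± 0.11 (limma adjusted p = 0.238 and 0.246). Both lean means passed with median centring, at -1.26 and -0.36 (limma adjusted p = 0.0353 and 0.0370). With that centring the median lean ratio over all probes was also below 0. Far more probes were then called over the whole array, most of them lower, so these calls do not set Bcl6 apart. The obese means were 0.51 ± 0.26 and -0.0048 ± 0.11 (limma adjusted p = 0.429 and 0.987), so the probes agreed in direction in lean and not in obese rats.

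**Figure D3:**
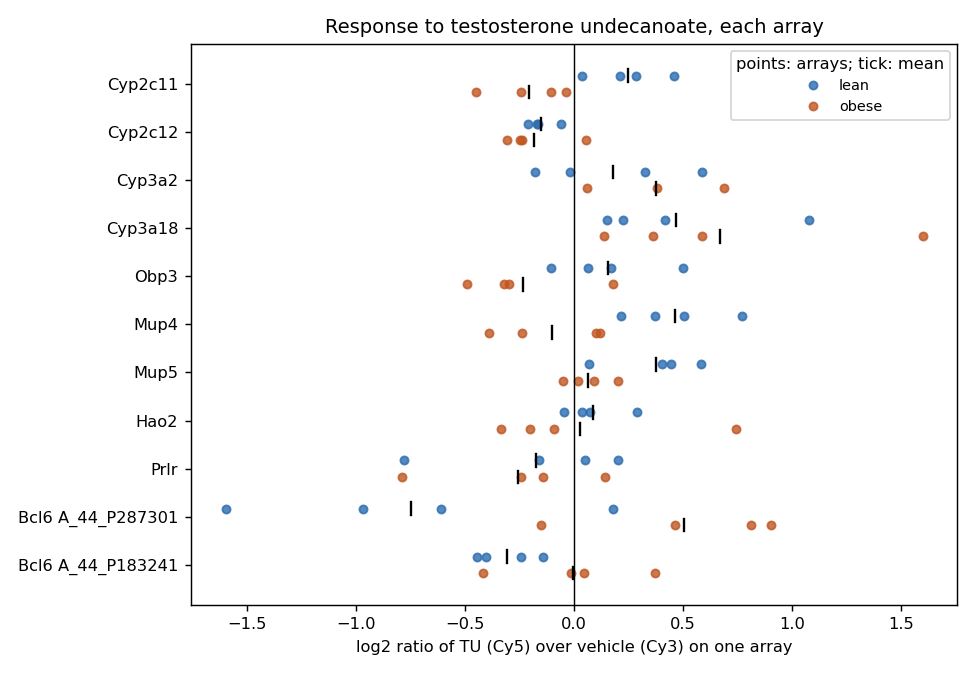
Log2 ratio of TU (Cy5) over vehicle (Cy3) on each lean (blue) and obese (orange) array for the 11 probes, with the group mean as a tick. After loess Cyp2c11 lies to the right of 0 on all 4 lean arrays and to the left on all 4 obese arrays (its means are -0.19 and 0.28 with median centring), Mup4 separates the genotypes, and the other 9 probes overlap between genotypes.

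Other genes of the pathway were counted from lists of male-biased, female-biased, growth hormone signalling and androgen-handling genes, each gene by its brightest probe. The male-biased and female-biased lists mix genes known from rat or mouse liver, either higher in that sex or dependent on its growth hormone pattern. A listed gene is therefore not always sex-biased in rats. Of 14 measured male-biased genes, 4 were lower and 0 higher in obese arrays in Cy3 (6.71% and 9.23% of all probes), and 5 were lower and 1 higher in Cy5 (8.18% and 13.5%). The lower genes in both dyes were Car3, a carbonic anhydrase (-2.42 and -2.10, limma adjusted p = 0.000579 and 0.000530), the sulfotransferases Sult1c3 (-1.60 and -1.75, limma adjusted p = 0.00597 and 0.000770) and Sult1c2 (-1.45 and -0.90, adjusted p = 0.0204 and 0.0390), and Hsd11b1, which interconverts glucocorticoids (-1.31 and -0.99, adjusted p = 0.000916 and 0.00191). In Cy5, Nox4 was at least 1.37-fold lower (limma adjusted p = 0.0165, with no obese array well above background) and the steroid dehydrogenase Hsd3b5 was higher at 0.29 (0.0187, but -0.020 from the processed signals and -0.088 with 75th percentile scaling, and not called without lean replicate 3, 0.0582), both named after their values were seen. The list's median was -0.28 in Cy3 and -0.24 in Cy5, against 0.02 and 0.03 over all probes. Calls of Sult1c2 were lost without any 1 lean array in Cy3, and in Cy5 without any 1 array other than lean replicate 3 or obese replicate 3. Sult1c2 and Hsd11b1 each had 2 probes past the filter, and only the brightest of each is given here.

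Of 14 measured female-biased genes, 3 were higher and 2 lower in Cy3 (9.23% and 6.71% of all probes), and 5 were higher and 1 lower in Cy5 (13.5% and 8.18%), with list medians of 0.40 and 0.35. Cyp17a1, a steroid hydroxylase and lyase, was higher by 2.65 and 2.27 (limma adjusted p = 0.000112 and 0.000160). The sulfotransferase Sult2a2 was higher by 2.54 and 3.10 (adjusted p = 0.00308 and 0.00692), with 3 of 4 lean arrays well above background in Cy3. The steroid reductase Srd5a1 was higher by 1.44 and 1.48 (adjusted p = 0.00260 and 0.00722), its other probe by 0.88 and 0.74 (adjusted p = 0.0174 and 0.0535). In Cy5, Akr1b7, a reductase of aldehydes, was higher by 1.63 (limma adjusted p = 0.00438, with 3 of 4 lean arrays well above background) and Sult2a1, named after its value was seen, by 1.29 (0.00395). The flavin monooxygenase Fmo1 was lower in Cy3 (-0.92, limma adjusted p = 0.00688), and Tox, named after its values were seen, was lower in both (-0.72 and -0.59, adjusted p = 0.00912 and 0.00281).

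Of 26 growth hormone signalling genes, 1 was higher and 3 were lower in Cy3, and 4 were higher and 4 lower in Cy5, with medians of -0.01 and -0.02. The 4 calls in Cy3 are a share near the 15.9% of all probes called there, and in Cy5 21.7% of all probes were called. The receptor gene Ghr was higher by 1.07 and 0.85 (limma adjusted p = 0.000527 and 0.00150); a second probe gave 0.83 and 0.85 (0.00597 and 0.00230) and the third -0.17 and 0.18 (0.637 and 0.374). The main Ghr value was 0.07 in Cy3 and 0.31 in Cy5 with 75th percentile scaling. Stat5b, the factor that carries the pulses, stood at 0.31 and 0.27 (adjusted p = 0.258 and 0.251).

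Genes that growth hormone induces through STAT5, Cish and Socs2, were lower in obese arrays. Cish read 8.98, 8.81, 8.97 and 9.06 in Cy3 of lean and 7.83, 7.43, 7.96 and 8.31 in obese arrays, with no overlap. Its differences were -1.07 in Cy3 and -1.29 in Cy5 (limma adjusted p = 0.00784 and 0.000239). Socs2 read 8.40, 8.14, 8.15 and 9.13 in Cy3 of lean and 7.86, 7.40, 7.20 and 7.78 in obese arrays, with no overlap. Its differences were -0.90 in Cy3 and -1.68 in Cy5 (limma adjusted p = 0.0491 and 0.00365), and the Cy3 call was lost without any 1 array other than obese replicate 1. Igf1, the growth factor gene induced in liver by growth hormone, stood at 0.29 in Cy3 and 0.50 in Cy5 (adjusted p = 0.132 and 0.0239), its other probe at 0.58 and 0.78 (0.0182 and 0.00712). The Cy5 call of the first Igf1 probe was lost without lean replicate 2, obese replicate 2 or obese replicate 4 (limma adjusted p = 0.0640, 0.0556 and 0.0621). Both Igf1 probes lay above 0 in both dyes, though the first probe's Cy3 value was -0.16 from the processed signals and -0.64 with 75th percentile scaling. The binding protein gene Igfbp1 was lower, with differences of -1.14 and -1.12 (adjusted p = 0.0148 and 0.0119). In Cy5, Stat5a (0.70, 0.0354) and the liver factor gene Cebpa (0.60, 0.00382) were higher and Igfbp2 (-0.39, 0.0195, with 2 of 4 obese arrays well above background) lower, all 3 named after their values were seen. The Stat5a call was lost without any 1 lean array or without obese replicate 4 (limma adjusted p = 0.0669 to 0.0922).

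Of 11 androgen-handling genes, 4 were higher and 2 lower in each dye, where 15.9% of all probes were called in Cy3 and 21.7% in Cy5. In Cy3 the higher genes were Srd5a1, the retinol and steroid dehydrogenase gene Hsd17b6 (1.24, limma adjusted p = 0.0322), Hsd17b13 (0.98, 0.0116) and Ugt2b (0.39, 0.0251), and the lower ones the glucuronosyltransferase gene Ugt2b1 (-1.07, 0.0290) and the steroid reductase gene Srd5a2 (-0.65, 0.00734). In Cy5 they were Srd5a1, Hsd17b13 (0.72, 0.0217), Ugt2b (0.53, 0.00180) and Cyp7b1 (0.53, 0.0208) against Ugt2b1 (-0.82, 0.00613) and Srd5a2 (-0.70, 0.00128). The Hsd17b6 fit lacks obese replicate 2, whose spot was left out, and its Cy3 call was lost without any 1 lean array, obese replicate 3 or obese replicate 4 (limma adjusted p = 0.0698 to 0.0897). In Cy3 leaving out lean replicate 2, 3 or 4 ended both the Ugt2b call (0.0734 to 0.0756) and the Ugt2b1 call (0.0837 to 0.0880), as did leaving out obese replicate 4 for Ugt2b (0.0620). In Cy5 leaving out lean replicate 2, 3 or 4 ended the Hsd17b13 call (0.0532 to 0.0643), as did leaving out obese replicate 4 (0.0505). The Cyp7b1 call ended when lean replicate 1, lean replicate 2 or obese replicate 2 was left out (0.0551 to 0.0618). With 75th percentile scaling Hsd17b13 was -0.061 in Cy3 and Ugt2b -0.74 in Cy3 and -0.051 in Cy5, and Ugt2b was -0.14 in Cy3 from the processed signals. The second Ugt2b probe pointed the other way (-0.60 and -0.53, adjusted p = 0.117 and 0.127). Cyp7b1, Ugt2b in these comparisons and Srd5a2 in Cy3 were named after their values were seen.

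**Figure D4:**
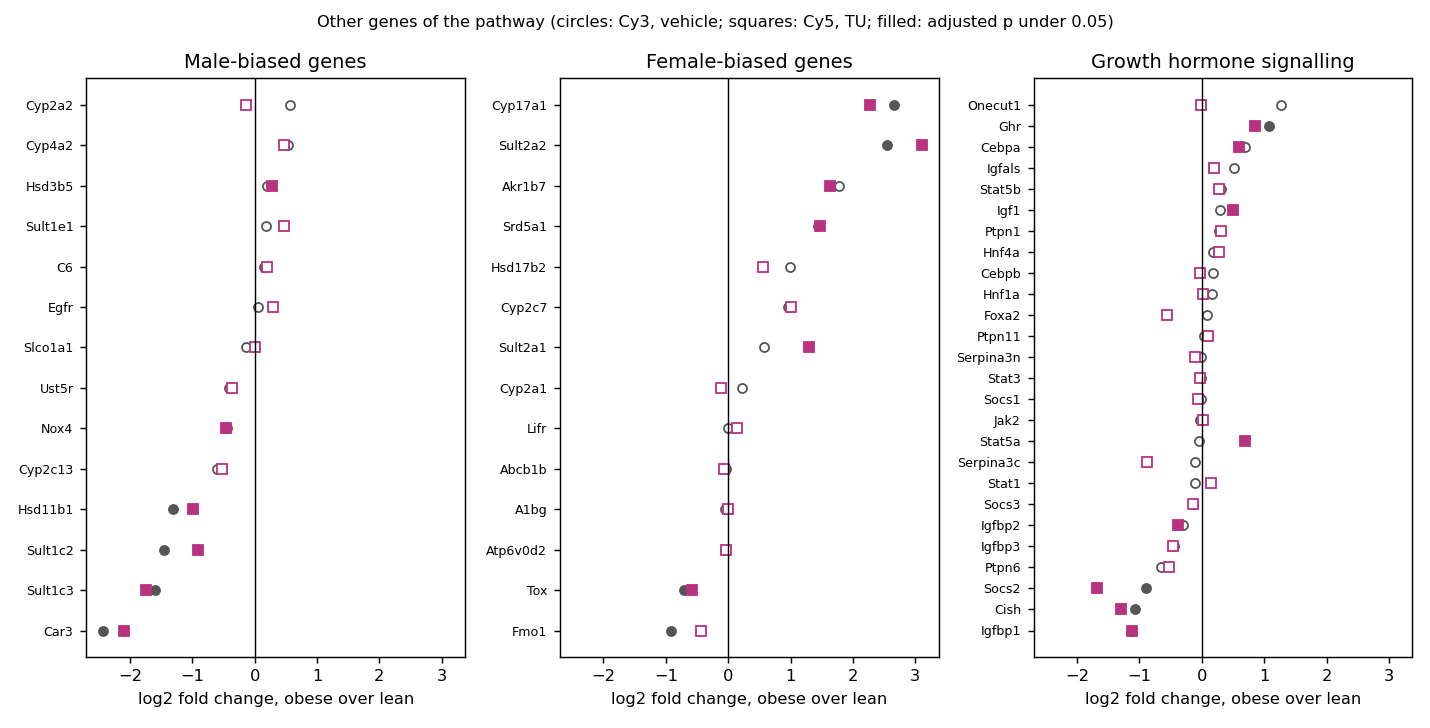
Log2 fold change of obese over lean arrays for the measured male-biased (14), female-biased (14) and growth hormone signalling (26) genes other than the members, in the vehicle channel (circles) and the TU channel (squares), filled where the adjusted p is under 0.05. Car3 is the lowest male-biased gene, Cyp17a1 and Sult2a2 are the highest female-biased genes, and Cish and Socs2 lie left of 0 in both dyes.

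Few genes of these lists passed in the TU ratios, and their direction was higher. In lean rats the calls were Serpina3n, a protease inhibitor gene induced by growth hormone (0.53 ± 0.08, limma adjusted p = 0.0432), the glucuronosyltransferase gene Ugt2b (0.50 ± 0.06, 0.0279) and Hsd17b13 (0.43 ± 0.06, 0.0432, but -0.074 with median centring). In obese rats the call was Ugt2b (0.64 ± 0.06, limma adjusted p = 0.0306), and of its 2 probes past the filter only the brightest is given for TU. Each of these calls was lost without any 1 lean array, and with median centring, scaling between arrays or the processed signals. The lean calls were also lost without obese replicate 1 or obese replicate 4. The obese Ugt2b call was lost without obese replicate 1, 2 or 4 (limma adjusted p = 0.202, 0.0884 and 0.134). Among the lists, Srd5a1 had the lowest lean ratio of the androgen-handling genes (-0.81 ± 0.17 in lean and -0.77 ± 0.17 in obese rats, limma adjusted p = 0.101 and 0.258). The 14 male-biased and 14 female-biased genes had 0 calls in either genotype, with 6 and 4 at an unadjusted p under 0.05 in lean (15.0% of all probes) and 7 and 5 in obese arrays (12.7%), and medians of 0.06 and -0.03 in lean and 0.12 and 0.03 in obese arrays. Socs2 stood at 0.61 ± 0.19 in lean rats and -0.17 ± 0.19 in obese rats, with an obese minus lean difference of -0.79 ± 0.27 (limma adjusted p = 0.641).

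Marker lists of other cells moved between the genotypes too, and their part in the results was not tested. The summed level of 7 stellate cell markers was 7597 to 8886 in Cy3 of lean and 8699 to 12596 in obese arrays, and 6299 to 6824 against 8799 to 17323 in Cy5. The 4 measured lymphocyte markers summed to 916 to 1006 in lean and 583 to 799 in obese arrays in Cy3 (920 to 1075 and 654 to 847 in Cy5), and Cd3e and Cd2 did not pass the filter on dim probes. The 2 measured adipocyte markers summed to 3583 to 4207 in lean and 2110 to 2653 in obese arrays in Cy3, while Adipoq and Lep, which define fat cells, did not pass the filter. The 10 hepatocyte markers summed to 812668 to 939414 in lean and 791518 to 1204973 in obese arrays in Cy3. In Cy5 the hepatocyte sums were 1034900 to 1338997 in lean and 781723 to 1157855 in obese arrays. In the TU ratios the hepatocyte markers had a median of 0.27 in lean and -0.07 in obese rats. All 10 lay below 0 in the obese minus lean difference (median -0.28, 0 called by limma and 0 at an unadjusted p under 0.05). After loess Cyp2c11, Obp3, Mup4 and Mup5 had the same direction, but with median centring they lay above 0, and the markers are not given with that centring. The 4 erythroid markers also lay below 0 in the obese minus lean difference (median -0.81, 2 at an unadjusted p under 0.05), with medians of 0.52 in lean and -0.28 in obese rats, and the 7 stellate cell markers lay above 0 (median 0.24, 1 at an unadjusted p under 0.05). Kupffer cell, endothelial, cholangiocyte and erythroid sums overlapped between lean and obese arrays in both dyes, but single genes passed. Over all probes 9.23% were called higher and 6.71% lower in Cy3, and 13.5% and 8.18% in Cy5. Of 5 endothelial markers 1 was called lower in Cy3 and 3 in Cy5. Of 10 Kupffer cell markers 2 were called higher and 2 lower in Cy5. Of 10 hepatocyte markers 3 were called higher and 0 lower in Cy3, and 2 higher and 1 lower in Cy5. Of 7 stellate cell markers 2 were called higher and 1 lower in Cy3, and 4 higher and 1 lower in Cy5. Of 4 lymphocyte markers 2 were called lower in each dye, and of 2 adipocyte markers 1 in Cy3 and 2 in Cy5. All 4 erythroid markers lay above 0 in Cy3 (median 0.79, 1 called). Their Cy3 sum was 31843 on obese replicate 2, the array of widest spread in its ratios, and 6664 in its Cy5. The other obese arrays had 6291 to 11198 in Cy3 and the lean arrays 2848 to 6957. The 3 measured pancreatic markers overlapped in Cy3 and lay at 463 to 532 in lean and 414 to 462 in obese arrays in Cy5, and Prss1, Cela1, Cpa1 and Pnlip did not pass the filter.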

How the data were processed

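Liver RNA was measured on 8 arrays, 4 per genotype, with vehicle RNA in Cy3 and TU RNA in Cy5. Per the file headers, the authors scanned the arrays with Agilent Feature Extraction 10.7.3.1, and the deposited files hold median spot and background intensities, processed signal intensities and log10 ratios. The authors' deposited value table holds log2 ratios, and the sources used here do not give their normalization. Over all probes, dim ones included, the TU ratios used here correlated with the deposited ones at only 0.24 to 0.70 per array. The scanner's own log ratios correlated with them at 0.70 to 0.996. All columns were mapped to samples (0 were not).

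Mean signals were not used here; the median signals took their place. They were background corrected (normexp, offset 50), normalized within arrays by loess and, for comparisons within a dye, between arrays by Aquantile (limma 3.58.1 in R 4.3.3, with the data.table package, version 1.17.8). Control and non-uniform spots were left out, and probes had to be well above background in either channel on 4 of 8 arrays. Each of 5 comparisons was fitted with lmFit and eBayes over all passing probes, with Benjamini-Hochberg adjustment and a threshold of 0.05. The fits were tested on simulated data. Accessions of 16815 probes were assigned to 13351 genes through a RefSeq table (GRCr8, while the arrays' grid names rn4). All members were named, and from each list the genes past the threshold, at most 4 per comparison by size of change, with Ghr, Stat5b, Socs2, Cish and Igf1 whatever their value; 1 further gene of that rule is not reported here. The members and lists were chosen with earlier results of these data known. Replicate numbers, which give the place on the slide, did not pair the arrays. Alternatives covered background, filter, normalization, signal source, replicate block, 1 probe per gene and each array left out; keeping non-uniform spots was added after the data were seen.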

Additional observations from a re-analysis of the deposited data

Results flagged for a closer look

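Among the members, Bcl6 A_44_P287301 had 1 array apart from its group, since its Cy5 level was 10.87 on lean replicate 1 and 9.48 to 9.62 on the other lean arrays. Cyp2c11 had TU ratios above 0 on all 4 lean and below 0 on all 4 obese arrays, and its obese minus lean difference was -0.45 (limma adjusted p = 0.641). An array stood apart in 12 of 234 groups of values tested, and chance gives about 1 in 20.

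Among the listed genes, Cyp17a1 had a TU ratio of 0.67 on lean replicate 1 (0.34 to 0.37 on the other lean arrays), and Ghr one of 0.46 on the same array (0.15 to 0.21). The Akr1b7 ratio was 0.014 on lean replicate 3 (-0.50 to -0.41 on the others), and the Cyp7b1 ratio was -0.74 on lean replicate 2 (-0.11 to -0.03). Igfbp2 stood apart on lean replicate 2 in its ratio, 0.69 (-0.08 to 0.04), and in its Cy5 level, 7.49 (7.12 to 7.17). The Cebpa ratio was -0.40 on lean replicate 1 (-0.09 to -0.06) and -1.08 on obese replicate 2 (-0.05 to 0.12). In Cy5, Socs2 read 7.93 on obese replicate 1 (7.17 to 7.26), Ugt2b 16.37 on obese replicate 4 (16.14 to 16.16) and Sult2a1 13.32 on lean replicate 3 (12.87 to 12.90).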

How the results depend on the processing

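Across the alternatives no called member changed direction; of all recomputed values, 1649 kept their direction and side of the threshold, 152 lost the call, 11 gained one and 53 changed sign, and the cause was not tested. With median centring 2 member probes passed in lean rats, both of Bcl6; with the authors' log ratios 1 passed in obese rats, Cyp3a2; with 75th percentile scaling 3 passed in Cy5. Leaving out 1 array gave 0 to 2 member calls in lean, 0 to 0 in obese, 0 to 0 in the difference, 5 to 6 in Cy3 and 7 to 7 in Cy5. The calls over all probes in these settings, which also moved, are given below.

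With median centring the lean TU ratio was -0.19 for Cyp2c11, -0.29 for Cyp3a2, -0.031 for Cyp3a18, -0.32 for Obp3, -0.015 for Mup4, -0.055 for Mup5, -0.40 for Hao2 and -0.074 for Hsd17b13. In obese rats it was 0.28 for Cyp2c11, 0.085 for Obp3, 0.28 for Mup4 and 0.021 for Bcl6 A_44_P183241. The difference was 0.47 for Cyp2c11, 0.34 for Cyp2c12, 0.41 for Obp3, 0.30 for Mup4, 0.67 for Mup5, 0.71 for Hao2 and 0.20 for Prlr. Scaled between arrays, the obese ratio was 0.14 for Mup4, -0.22 for Hao2 and 0.14 for Prlr, and the difference 0.023 for Mup5 and 0.18 for Prlr. With the processed signals, and likewise the authors' ratios, the obese ratio of Mup5 was -0.064 and the difference was 0.052 for Hao2 and 0.023 for Prlr. Between genotypes the processed signals gave -0.40 for Mup4, 0.28 for Bcl6 A_44_P287301, -0.14 for Ugt2b and -0.16 for Igf1 in Cy3, and -0.020 for Hsd3b5 in Cy5. Quantile normalization gave -0.018 for Mup4 in Cy3. The 75th percentile gave -0.77 for Mup4, -0.061 for Hsd17b13, -0.74 for Ugt2b and -0.64 for Igf1 in Cy3, and -0.088 for Hsd3b5 and -0.051 for Ugt2b in Cy5; it moved the median of all probes to 0.26 in Cy3.

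Leaving out 1 array gave ranges across 0 of -0.30 to 0.030 for Prlr in lean, -0.21 to 0.15 for Hao2 and -0.13 to 0.13 for Bcl6 A_44_P183241 in obese rats. In the difference these were -0.11 to 0.0094 for Cyp2c12, -0.10 to 0.41 for Cyp3a18, -0.30 to 0.061 for Hao2 and -0.29 to 0.092 for Prlr, and in Cy3 -0.26 to 0.16 for Mup5.

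Same-numbered arrays, which share a place on the slide, correlated at 0.06, -0.10, 0.16 and -0.01 in their deviations. They were not treated as pairs in the main fits. With the replicate block 0, 0 and 0 member probes passed in the TU comparisons, 5 in Cy3 (Hao2 lost, limma adjusted p = 0.0825) and 8 in Cy5 (Bcl6 A_44_P183241 gained, 0.0430). Over all probes the block gave 23, 0, 0 and 2002 calls in lean, obese, the difference and Cy3.

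The 53, 3 and 1 calls over all probes in lean, obese and the difference became 327, 23 and 0 with no background correction, 276, 209 and 2 with processed signals, 278, 203 and 2 with the authors' ratios, and 6584, 0 and 0 with median centring (312 higher and 6272 lower in lean). Scaled between arrays there were 0, 0 and 0 limma calls, with 3670, 3511 and 1995 at an unadjusted p under 0.05, and keeping non-uniform spots gave 6 in obese. With 75th percentile scaling 377 passed in Cy3 and 103 in Cy5. Leaving out 1 array gave 1 to 1200 in lean (highest without obese replicate 2), 0 to 2 in obese, 0 to 3 in the difference, 1832 to 5855 in Cy3 and 3700 to 8815 in Cy5.

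The limits are 4 arrays per genotype, 1 dye per treatment and 1 slide per genotype. In simulated data 39.4% of probes changed by 0.5 were recovered in Cy3, 69.4% at 1 and 95.8% at 2. In the difference these were 47.0%, 83.9% and 98.6%. The simulation drew independent noise without slide or dye effects, and changed 66, 62 and 72 of 26964 probes by those amounts. In the measured data limma called 4288 probes in Cy3 and 1 in the difference. The recovered shares are therefore not the power of the tests reported here.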
